A study of Rattus norvegicus with 4 samples.

Results

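In rat adipose-derived mesenchymal stem cells, 90 short stretches of chromosomes 1 to 20 carried 4 or more H3K9me3 sites in close succession. They were found from the deposited peak lists of 1 vehicle library and 1 library of cells given branched-chain amino acids (BCAA). Peaks of both lists were pooled, peaks overlapping by at least 1 bp were merged into loci, and loci separated by at most 10 kb were linked into chains. Chains of 4 or more loci were kept, and those touching chromosome 1 at 54 to 56 Mb, or the 2 Mb that follow 180 Mb, were left out. The 90 chains held 444 loci. Of the 8929 peaks in the vehicle list they took in 239, and of the 16704 in the BCAA list 337, or 576 of 25633 peaks in all. Because the chains were chosen by the peak positions of both libraries, the number, spacing and sharing of peaks inside them are descriptions and carry no test.

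The cells came from Sprague Dawley rats and grew in medium free of BCAA. All groups received 100 µM hydrogen peroxide for 12 h, either with vehicle (CON) or with 3.432 mM BCAA. Each condition gave 1 H3K9me3 library and 1 library with normal rabbit IgG, so every one of the 4 groups had 1 library, and no difference between vehicle and BCAA has a replicate check. The sources used here do not give the number of animals or cultures, and peak positions hold no expression by which the cell type could be checked. CUT&Tag uses an antibody to tether a transposase to chromatin, and the fragments it releases are sequenced.

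H3K9me3 is laid down by methyltransferases such as SUV39H1, SUV39H2 and SETDB1 and is read by HP1 proteins, which compact the chromatin. It lies on satellite repeats near centromeres, on transposable elements such as endogenous retroviruses, and over clusters of zinc finger genes. The mark can spread along a region by reader and writer acting in turn. Genes and repeats under the chains were not analysed here, since a sequence and annotation of rn6, the build of these lists, were not used.

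Most chains were short and sparsely covered. Of the 90, 54 had 4 loci, 15 had 5, 8 had 6, 4 had 7, 5 had 8, 3 had 9 and 1 had 10. Their span ran from 6066 to 50277 bp, with a median of 19660 bp and quartiles of 15940 and 24984 bp. Peaks covered 2.18 to 31.96% of a chain, with a median of 6.94%, so most of the sequence between the first and last locus had no called peak. Gaps between neighbouring loci ranged from 29 to 9936 bp and had a median of 5311 bp. The median locus was 198 bp wide, and the widest reached 3495 bp. Peaks covered 158511 bp of the 90 chains.

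The limits of the definition fall within a continuous range of sizes. The 54 chains of 4 loci had a median span of 17261 bp and the 221 chains of 3 loci, just outside the limit, one of 11322 bp. The highest −log10 q in a chain had a median of 3.84 among the former and 2.50 among the latter. Chains of 4 loci hold more peaks, and a maximum taken over more values tends to be higher. The closest locus outside a chain lay 10054 bp from its edge, against the longest gap of 9936 bp within one. How many chains scattered loci would form by themselves was not computed.

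Nearly all chains held peaks of both libraries, often at different loci, and 56 of the 90 had a locus with peaks of both (62.2%). Of the 90 chains, 86 held peaks of both libraries (95.6%, exact binomial 95% interval 89.0 to 98.8%), 4 held BCAA peaks only, and 0 held vehicle peaks only. In 59 chains the BCAA peaks outnumbered the vehicle peaks, in 19 the vehicle peaks were more numerous, and in 12 the numbers were equal. A chain had 0 to 9 vehicle peaks (median 2) and 1 to 9 BCAA peaks (median 3). Chains of 4 or more loci pooled from both lists tend to be mixed by construction, and the share expected from this was not computed. The lists also differ in length, with 15564 BCAA and 8420 vehicle peaks on chromosomes 1 to 20, a ratio of 1.85. All intervals here cover counting error only and treat peaks as independent, which neighbours in a chain need not be.

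**Figure D1:**
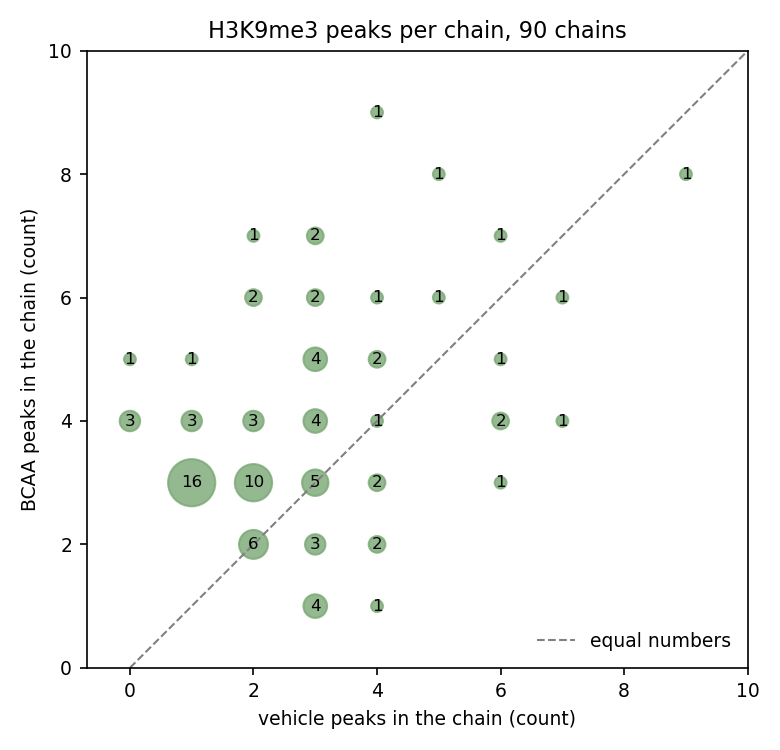
Number of vehicle peaks (horizontal) and BCAA peaks (vertical) in each of the 90 chains. The area of a disc and the number in it give how many chains share that pair of counts, and the dashed line marks equal numbers. The discs above the line hold 59 chains and those below it 19.

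At the level of single loci, sharing was partial. Of the 444 loci, 120 had peaks of both libraries (27.0%, 22.9 to 31.4%), 107 had vehicle peaks only and 217 had BCAA peaks only. Among all 22559 loci of chromosomes 1 to 20, 6.14% had both. Of the 239 vehicle members, 132 overlapped a BCAA peak, and are called met below (55.2%, 48.7 to 61.6%), where 16.9% of all vehicle peaks on these chromosomes were met. Among the 337 BCAA members, 120 were met (35.6%, 30.5 to 41.0%), where the share of all BCAA peaks was 8.9%. A shared pair forms 1 locus and 2 separate peaks form 2, so the locus limit itself favours chains of unshared peaks.

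Sharing was higher the more loci a chain had. Among vehicle peaks, 13.4% were met at loci without another within 10 kb (847 of 6310), 27.9% in chains of 3 loci (81 of 290), 46.6% in chains of 4 or 5 (69 of 148) and 69.2% in chains of 6 or more (63 of 91). For BCAA peaks the same steps were 6.82%, 17.2%, 29.7% and 45.6%. All 21 chains of 6 or more loci had at least 1 shared locus, as did 35 of the 69 with 4 or 5. More loci give a chain more occasions for a shared one, so these counts do not measure sharing per locus. Of single loci, 63 of 291 were shared in chains of 4 or 5 (21.6%) and 57 of 153 in chains of 6 or more (37.3%). Shares of peaks met were higher still in the chains of the left-out chromosome 1 blocks, at 92.6% of 94 vehicle and 69.4% of 121 BCAA peaks.

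**Figure D2:**
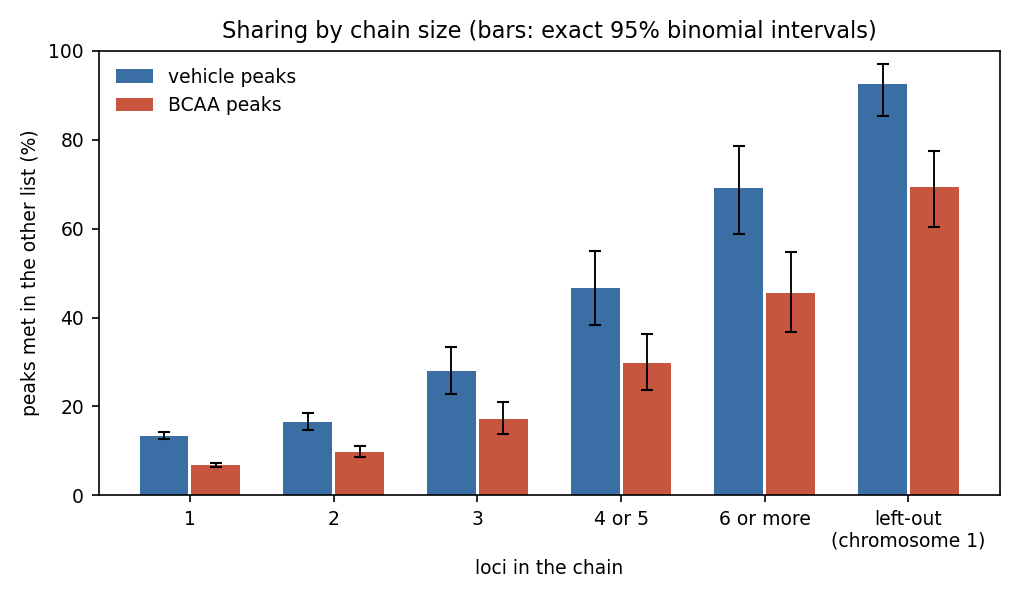
Percentage of peaks, for the vehicle and the BCAA list, overlapped by a peak of the other list, by the number of loci in their chain, with exact 95% binomial intervals. The vehicle bars go from 13.4% for single loci to 69.2% in chains of 6 or more loci and the BCAA bars from 6.82 to 45.6%, and the left-out chains of chromosome 1 are drawn at the right.

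Chain members were also stronger than other peaks of their list, and stronger peaks were shared more often in and out of chains. Fold enrichment, the authors' ratio of signal to local background, had a median of 4.24 among vehicle members and 2.93 among vehicle peaks outside chains, and of 4.34 and 3.36 among BCAA peaks. A −log10 q of 2 or more was found for 158 of the 239 vehicle members (66.1%, against 43.1% of all vehicle peaks on these chromosomes) and 227 of the 337 BCAA members (67.4%, against 34.9%). A −log10 q of 5 or more was reached by 65 of the 239 vehicle members (27.2%, against 5.63%) and by 97 of the 337 BCAA members (28.8%, against 5.78%). At 20 or more the chains held 18 of the 73 vehicle peaks (24.7%) and, for BCAA, 32 of the 175 peaks (18.3%) of chromosomes 1 to 20, in stretches with 2.84% of all vehicle and 2.17% of all BCAA peaks there.

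Sharing is also given by range of strength, as a description of peaks whose positions chose the chains. Of vehicle peaks with −log10 q under 2, 22.2% were met in chains (18 of 81, 13.7 to 32.8%) and 7.53% outside (6.79 to 8.32%). From 2 to 5 the shares were 55.9% (52 of 93) and 20.9%, and at 5 or more they were 95.4% (62 of 65) and 72.6% (297 of 409). Of BCAA peaks, 10.0% (11 of 110) against 2.86% were met at under 2, 26.9% (35 of 130) against 11.5% from 2 to 5, and 76.3% (74 of 97, 66.6 to 84.3%) against 58.7% (55.2 to 62.1%) at 5 or more. The ranges do not match members and other peaks in strength or width: among vehicle peaks of 5 or more, 18 of 65 members and 55 of 409 others reached 20, and among BCAA peaks 32 of 97 and 143 of 803. The part of strength and width in the sharing was not tested.

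The members were also wider than other peaks. Vehicle members had a median width of 169 bp, against 153 bp outside chains, and BCAA members one of 219 bp, against 186 bp. The upper quartile was 232 bp in chains and 170 bp outside for vehicle, and 471 and 210 bp for BCAA. The widest members were a BCAA peak at chr12:3350886-3354371 (3486 bp) and BCAA peaks at chr1:56035155-56038049 (2895 bp) and chr13:33502443-33505236 (2794 bp). Among vehicle peaks they lay at chr1:99054206-99056607 (2402 bp), chr1:56035812-56037782 (1971 bp) and chr13:33488049-33489982 (1934 bp). Each of the 6 met a peak of the other library. The shortest BCAA peak was 163 bp and the shortest vehicle peak 119 bp, so widths of the libraries were not compared with each other.

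With the lists as deposited, the excess of BCAA over vehicle peaks was smaller in chains than elsewhere, an order that turned when the lists were made equally long. BCAA peaks per vehicle peak came to 1.41 in chains (95% interval 1.19 to 1.67) and 1.86 outside them on the same chromosomes (1.81 to 1.91). It was 1.93 for single loci, 1.57 in chains of 3 loci, 1.43 in chains of 4 or 5 and 1.37 in chains of 6 or more. A met pair adds a peak to each list and so draws the ratio towards 1. The ratio is therefore not independent of the sharing given above, and its value for unmet peaks alone is not given here. Counted by loci instead of peaks it was 1.48 (337 and 227 loci), since 9 loci held more than 1 vehicle peak, up to 4, under a single BCAA peak, and 0 held more than 1 BCAA peak. At −log10 q of 5 or more the ratio was 1.49 in chains (97 and 65 peaks, 1.08 to 2.08) and 1.96 outside (1.74 to 2.22), and at 2 or more it was 1.44 and 1.5; at both limits the interval in chains overlapped that outside. With the BCAA list reduced to its 8929 peaks of highest −log10 p, the number of vehicle peaks, the ratio was 1.24 in chains and 0.989 outside. With vehicle peaks under 163 bp, the shortest BCAA peak, left out, it was 2.19 in chains and 5.07 outside. Over the 10 other settings that rebuild the chains, the ratio was lower in chains than outside in 9. Read totals are not in these lists, so depth and treatment cannot be told apart in any of these ratios.

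To have a readout that did not take part in the choice, chains were also built from 1 list at a time. The vehicle list alone gave 15 chains of 4 or more loci with 79 vehicle peaks, and each of the 15 held at least 1 BCAA peak, between 1 and 8 and with a median of 4. The BCAA peaks met 60 of the 79 vehicle peaks (75.9%, 65.0 to 84.9%), against 16.4% (15.6 to 17.2%) of the vehicle peaks outside those chains. Vehicle peaks inside and outside those chains were not matched in strength, and stronger peaks were met more often, as given above. There were 203 BCAA peaks per Mb in these chains, where chromosomes 1 to 20 had 5.96 per Mb. Of the 52 BCAA peaks inside, 6 met no vehicle peak, or 26.2 per Mb of the sequence between the vehicle peaks, beside 5.43 per Mb on chromosomes 1 to 20. This density rests on those 6 peaks. From 10 to 20 kb beyond the 90 pooled chains, BCAA peaks, met or not, numbered 25.6 per Mb.

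The BCAA list alone gave 39 chains with 200 BCAA peaks. Vehicle peaks were present in 35 of the 39 (89.7%, 75.8 to 97.1%), from 0 to 9 per chain with a median of 3. They met 92 of the 200 BCAA peaks (46.0%, 38.9 to 53.2%), against 8.42% (7.98 to 8.87%) of the BCAA peaks outside those chains. Strength was not matched here either. The density of vehicle peaks was 122 per Mb inside and 3.23 per Mb on chromosomes 1 to 20. Vehicle peaks that met no BCAA peak numbered 11 there, or 13.0 per Mb of the sequence between BCAA peaks, beside 2.68 per Mb on chromosomes 1 to 20. From 10 to 20 kb beyond the 90 pooled chains, vehicle peaks, met or not, numbered 12.5 per Mb. All 39 BCAA chains and 13 of the 15 vehicle chains overlapped one of the 90 pooled chains, and they touched 43.3% and 14.4% of the 90. The other vehicle chains, chr9:12180089-12183845 and chr18:38414032-38417189, had 4 vehicle peaks each and 2 and 1 BCAA peaks. Every peak of 1 list is also in the pooled lists, so the overlap with the 90 is largely fixed by construction.

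Peaks were also frequent around the chains, in sequence that the definition leaves out. From 20 to 50 kb beyond a chain's edge there were 13.4 vehicle and 20.2 BCAA peaks per Mb, against 3.10 and 5.78 in all sequence outside chains of 4 or more loci. From 200 to 500 kb these values were 5.53 and 10.0, and from 500 to 1000 kb they were 4.30 and 7.86. Around the 53 chains that had no other chain and no left-out block within 1 Mb, densities at 20 to 50 kb were 9.12 (29 peaks) and 17.0 (54 peaks). In every distance range to 1 Mb, both lists were denser around chains than in all sequence outside them, for all 90 and for the 53.

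**Figure D3:**
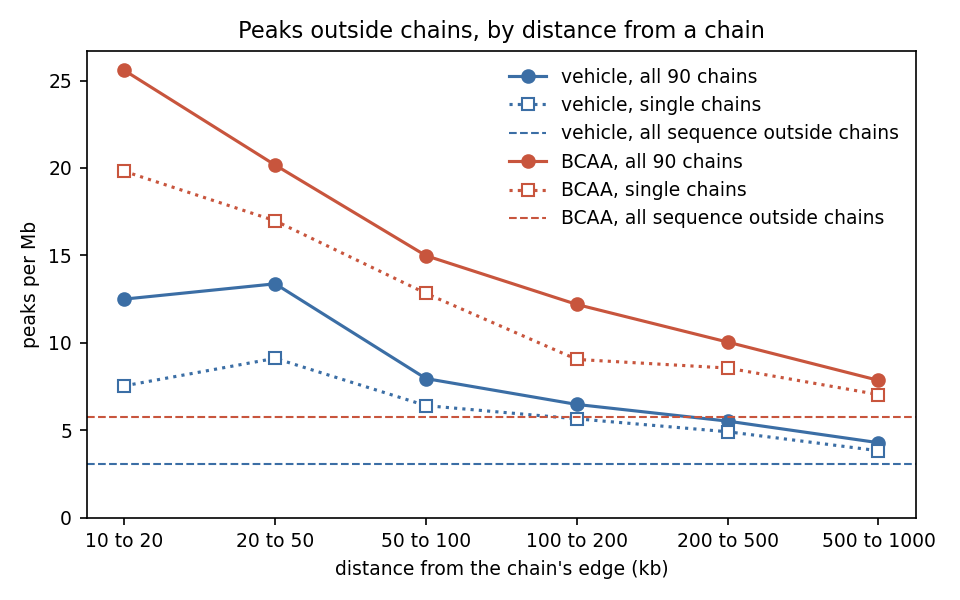
Peaks per Mb (vertical) by distance from a chain's edge in kb (horizontal), for peaks that belong to no chain of 4 or more loci. Filled points are all 90 chains, open squares the 53 with no other chain or left-out block within 1 Mb, and dashed lines the level in all sequence outside chains. Around all 90 chains the BCAA list falls from 25.6 to 7.86 over the 6 ranges, and the vehicle list goes from 12.5 by way of 13.4 to 4.30.

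Chains were present on 19 of the 20 chromosomes, and chromosome 20 had none. Chromosome 2 held 11, chromosome 1 outside the left-out blocks 9, and chromosomes 7 and 15 held 7 each. Set against the range of peaks, chromosome 12 was the richest with 7.59 chains per 100 Mb (4 chains), followed by chromosome 15 with 6.30. Chromosome 8 was the poorest of the 19 with 0.751 (1 chain). These rates rest on few chains, and 5 of the 7 on chromosome 15 lay within 579 kb. Within 2 Mb of an end of the range of peaks lay 7 of the 90 chains (7.78%, 3.18 to 15.4%), in 3.06% of the sequence. The median distance of a chain to the nearer end was 21.1 Mb. Of the 7, 2 lay together at chr17:89387742-89468719 and 2 at chr18:521233-705707, and the interval treats them as independent. The share of all peaks this near an end is not given here, so no preference of chains for ends can be read from these values.

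Many chains lay near another one. With a limit of 1 Mb, 35 of the 90 formed 14 neighbourhoods of 2 to 5 chains, and 55 stood alone. The neighbourhood with the most chains was at chr15:5367437-5946156, where 5 chains with 34 loci held 20 vehicle and 24 BCAA peaks. The next, at chr13:33475757-33762418, had 4 chains with 24 loci and 20 vehicle and 21 BCAA peaks. These neighbourhoods differed in sharing and strength. On chromosome 13, 17 of the 20 vehicle peaks were met and the highest fold enrichments were 17.2 with vehicle and 27.4 with BCAA. On chromosome 15, 10 of the 20 were met and the highest values were 9.47 and 9.71.

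Other neighbourhoods had 2 or 3 chains. The region chr2:159849980-161129171 had 3, with 7 vehicle and 8 BCAA peaks, and chr6:138510722-140000708 had 3, with 8 and 10. The region chr9:8394484-8482209 held 2 chains within 87.7 kb, with 7 of 8 vehicle peaks met, and chr17:89387742-89468719 held 2 within 81.0 kb, with 8 of 9 met. At chr12:3340783-3629843 all 9 vehicle peaks of 2 chains were met. At the other end of the range, none of the vehicle peaks was met in the pairs of chains at chr2:195054042-195116806 (2 vehicle and 7 BCAA peaks) and chr5:66322843-66781055 (2 and 6). No fold enrichment in these pairs was above 4.30.

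The chain with the most loci lay at chr9:12397441-12447717 and was also the longest, at 50.3 kb with 10 loci. Its 5 vehicle and 8 BCAA peaks shared 3 loci. The strongest member was the BCAA peak at 12444464 to 12444971 (fold enrichment 8.92), which overlapped a vehicle peak at 12444768 to 12444928 (4.75). The strongest vehicle peak, at 12444055 to 12444231 (6.44), was not met, and lay beside that BCAA peak without touching it. The middle of the chain had BCAA peaks alone, since no vehicle peak lay between 12405085 and 12444055.

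The chain at chr13:33475757-33515314 had 9 loci and, with 9 vehicle and 8 BCAA peaks, the most peaks of any chain. Of its 9 loci 7 were shared. Vehicle peaks of high fold enrichment stood at 33514751 to 33515304 (17.2), 33496666 to 33496894 (16.1), 33508484 to 33508697 (15.6) and 33475757 to 33476163 (12.1). BCAA peaks overlapped all 4, at 18.1, 27.4, 9.01 and 18.6. The peak values of the libraries are each set against their own background and were not compared in size. Between these narrow sites lay wide ones, among them a BCAA peak of 2794 bp at 33502443 to 33505236 that took in vehicle peaks starting at 33502638 and 33503499. Peaks covered 20.9% of this chain, against the median of 6.94%.

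This chromosome 13 chain was also the only one of the 90 with an IgG peak. IgG has no chromatin target, so its peaks show background. The BCAA IgG list, with 11 peaks, had one at 33504477 to 33505057 (581 bp, fold enrichment 6.50), and the vehicle IgG list, with 16, had 0 in chains. Only 6 of the BCAA IgG peaks and 8 of the vehicle IgG peaks lay on chromosomes 1 to 20, where chains were sought. The IgG peak in the chain overlapped 1 vehicle and 1 BCAA member, at 33503499 to 33505199 and 33502443 to 33505236. That BCAA member is among the 3 widest named above. Without peaks at IgG peaks there were still 90 chains, and 54.6% of 238 vehicle and 35.4% of 336 BCAA members were met.

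A second chain on chromosome 9, from 8394484 to 8442450, held 9 loci over 48.0 kb. All 4 of its vehicle peaks were met, and its 9 BCAA peaks included 5 unmet ones. The pair of highest fold enrichment was at 8410093 to 8410599 with vehicle (fold enrichment 10.9) and 8410110 to 8410633 with BCAA (11.1), and the next at 8417182 to 8417384 (8.86) and 8417188 to 8417389 (9.98). The unmet BCAA peaks were weaker than these pairs, with the highest at 8424475 to 8424862 (4.94). A met BCAA peak at 8440368 to 8441443 was no stronger than that (4.89). The libraries had the same 2 leading loci here.

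Other chains had no such leading pair. At chr15:5473184-5513723, 9 loci held 5 vehicle peaks of fold enrichment 4.43 to 5.58 and 6 BCAA peaks of 3.57 to 5.61. Only the loci at 5474363 to 5474817 and 5480620 to 5480821 were shared. From 5482508 onward the lists shared no locus, with BCAA peaks starting at 5482508, 5499293 and 5513222 and vehicle peaks at 5491814, 5504428 and 5511939. At chr3:96878697-96912845, 8 loci held 3 vehicle peaks (2.93 to 4.46) and 7 BCAA peaks (3.07 to 5.51), of which the pairs at 96886903 and 96902562 overlapped. No member of these 2 chains reached a fold enrichment of 6.

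The remaining chains among the 10 with the most loci had 8 loci or, for the last, 7. It was taken before 3 other chains of 7 loci because it had more peaks (13 against 10, 9 and 8), and those had 3, 2 and 1 shared loci. Those at chr6:125444330-125490064 (3 vehicle and 6 BCAA peaks), chr14:46595615-46633531 (3 and 6), chr15:5785197-5819989 (4 and 5) and chr16:37749067-37782817 (2 and 7) each had 1 shared locus of 8. By contrast, 5 of 7 loci were shared at chr17:89436386-89468719, where all 6 vehicle peaks were met by BCAA peaks and a BCAA peak of 1479 bp at 89455236 to 89456714 covered 2 of them. Over all 10 chains the number of shared loci ranged from 1 to 7.

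**Figure D4:**
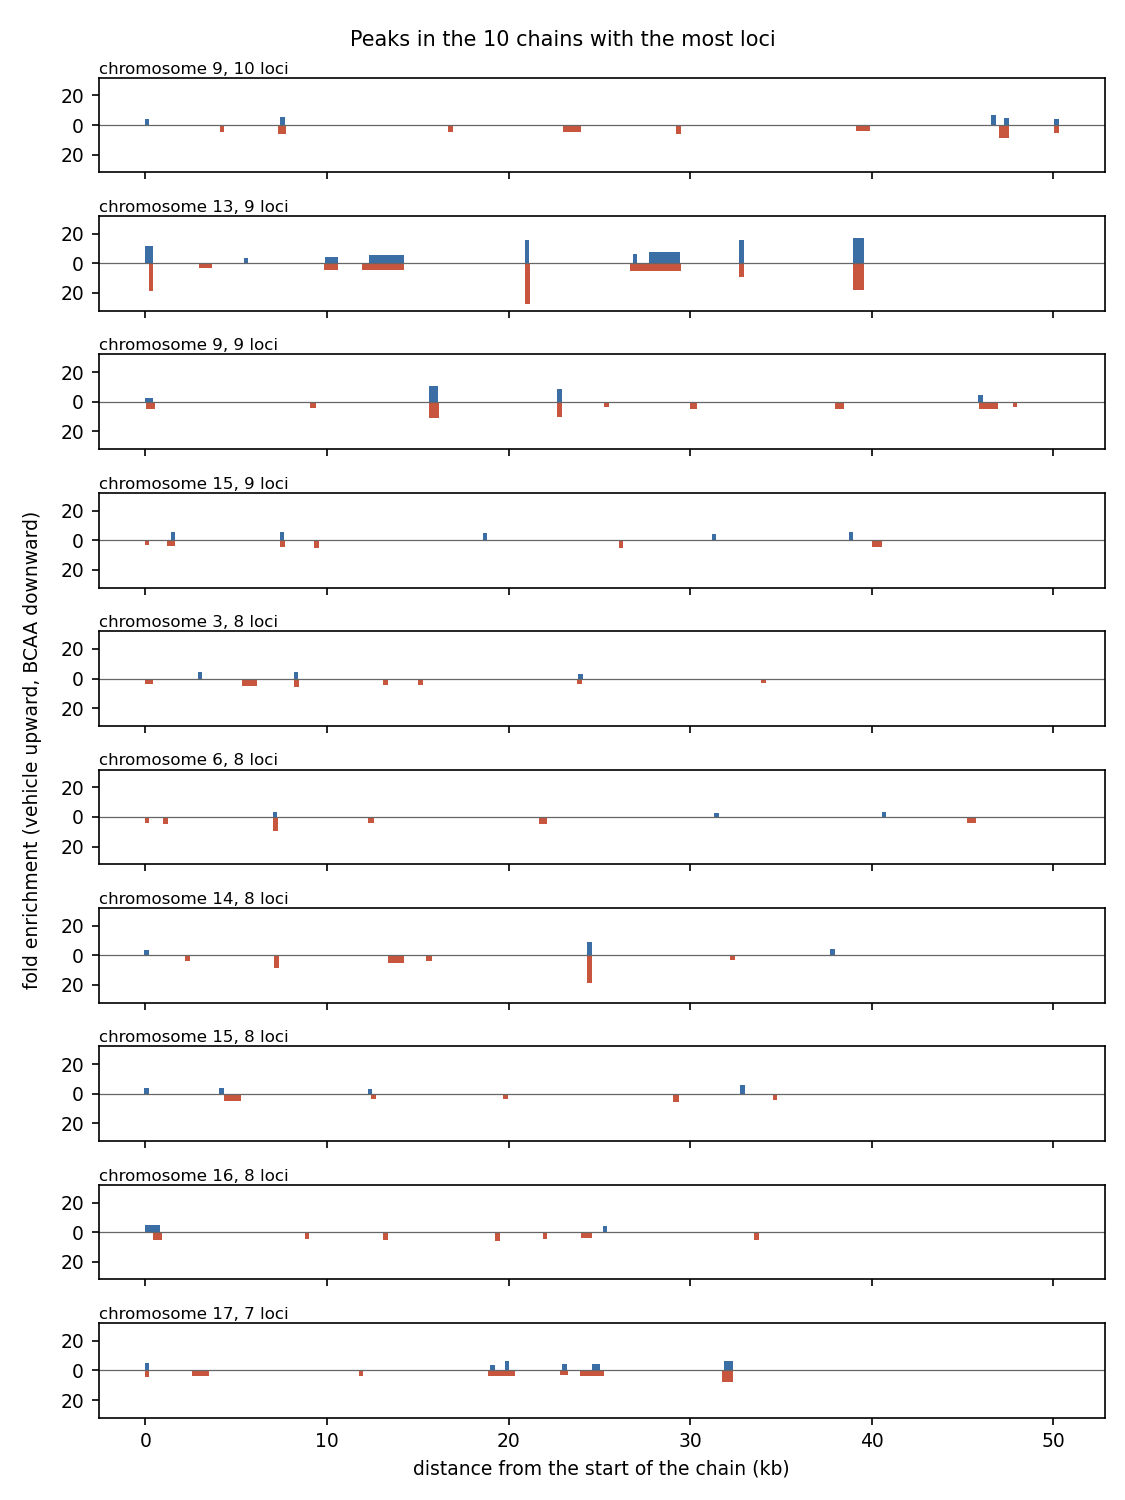
Peaks of the 10 chains with the most loci, by distance from the chain's start in kb. Bars upward are vehicle peaks and bars downward BCAA peaks, their height is the authors' fold enrichment and their width the peak's width, with narrow peaks drawn at 0.25 kb. The second row, from chromosome 13, shows 7 shared loci and values up to 27.4, and every unshared peak in the 10 rows lies below 10.

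Where only strong peaks were used, few chains were left, and most of their peaks were shared. Peaks of −log10 q 5 or more by themselves formed 7 chains, each overlapping one of the 90, which their making from the same peaks largely fixes. Vehicle and BCAA peaks numbered 32 each in them, 31 of the former and 27 of the latter being met by a peak within that limit. Outside the 90 chains, 297 of 409 vehicle peaks (72.6%) and 471 of 803 BCAA peaks (58.7%) of that strength were met. Those shares count overlap with peaks of any strength. The 7 chains lay at chr1:56017147-56038049, chr2:49354273-49371067, chr4:179673583-179683721, chr7:22323345-22337738, chr12:3340783-3357251, chr12:9530380-9548317 and chr13:33475757-33515314. The first belongs to a chain that begins at 56012144, just beyond the left-out block that ends at 56 Mb. Besides it, the chain at chr1:53642450-53676676 also lay within 1 Mb of a left-out block.

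In 2 chains every locus was shared. At chr4:179673583-179683721 the 4 vehicle peaks had fold enrichments of 5.75, 10.3, 6.02 and 8.89 in order of position, and the 4 BCAA peaks 3.91, 8.12, 5.16 and 6.45. Their order by fold enrichment was the same in both libraries. At chr12:3340783-3357251, 7 vehicle peaks lay on 4 loci. The BCAA peak at 3350886 to 3354371 took in 4 vehicle peaks, which started at 3350877, 3351683, 3353454 and 3354170. The first locus of this chain, 3340802 to 3341180 with vehicle (fold enrichment 15.2) and 3340783 to 3341184 with BCAA (22.5), was among the 5 pairs whose lower fold enrichment was highest.

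Ranked by the lower fold enrichment of the pair, the first 5 pairs lay on chromosomes 7, 12 and 13. The pair of highest −log10 q with BCAA (231) was on chromosome 7, at 22328415 to 22328608 with vehicle (fold enrichment 19.9) and 22328379 to 22328672 with BCAA (16.01). Its chain had 4 loci, of which 3 were shared, and the fourth was a BCAA peak at 22337532 to 22337738 (9.98). On the other chromosome 12 chain, chr12:9530380-9548317, 5 of 6 loci were shared and all 7 vehicle peaks were met. There the vehicle peak at 9535560 to 9535769 had a fold enrichment of 19.5 and the BCAA peak over it one of 9.08. The chain at chr2:49354273-49371067 had 6 vehicle peaks of which 5 were met, the exception being 49356143 to 49356292 (4.60).

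Across all chains, the fold enrichments of overlapping pairs tended to rise together in both libraries. The 132 overlapping pairs had a Spearman rho of 0.632 and a Pearson r of 0.705 between vehicle and BCAA fold enrichments, given as a description over pairs that share their libraries and, in part, their BCAA peak. In 28 of the 86 chains with peaks of both libraries, the strongest vehicle and BCAA peaks lay in the same locus (32.6%, 22.8 to 43.5%). Such a locus is shared by definition, so this was possible only in the 56 chains with a shared locus. How often unrelated leading loci would coincide was not computed. In the remaining chains the leading site differed between the lists.

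**Figure D5:**
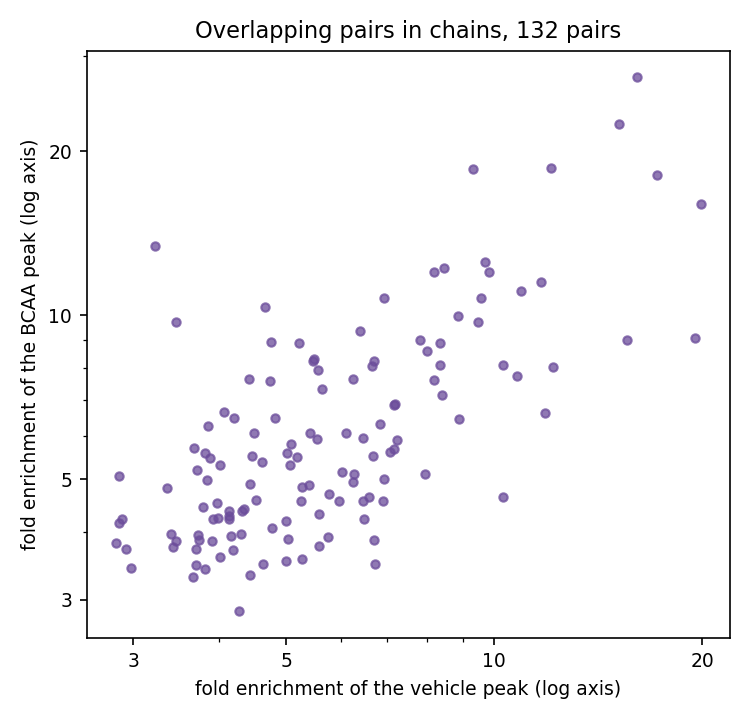
Fold enrichment of the vehicle peak (horizontal, log axis) and the BCAA peak (vertical, log axis) in the 132 overlapping pairs of the chains, 1 point a pair. Pairs high in one list tend to be high in the other, with a Spearman rho of 0.632, and the scatter is wide among pairs below 10.

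The balance of the libraries varied between chains. Among the 26 chains of 8 or more peaks, BCAA peaks most outnumbered vehicle peaks at chr16:37749067-37782817 (7 to 2) and at chr7:22994342-23027029 and chr7:21156266-21190850 (6 to 2 each). Their highest fold enrichments were 5.89, 5.71 and 4.34. BCAA peaks were fewest for each vehicle peak at chr1:53642450-53676676 (3 BCAA to 6 vehicle peaks), chr12:3340783-3357251 (4 to 7) and chr2:49354273-49371067 (4 to 6). In the last 2 of these, 1 BCAA peak spanned 4 and 2 vehicle peaks, respectively. On chromosome 1, 2 of the 7 loci were shared.

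The 4 chains without a vehicle peak lay at chr1:26619818-26633980, chr2:4780774-4804943, chr15:107050163-107071263 and chr17:15747191-15780154. The first 3 had 4 BCAA peaks each, with highest fold enrichments of 5.45, 5.23 and 4.24. The fourth had 5, led by 15747191 to 15747516 (9.29, −log10 q 11.5), and its other 4 peaks had fold enrichments of 2.81 to 4.11. A vehicle site missing from the list can be absent or undetected at the depth of that library.

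The chains with the most loci per kb were short rather than rich. They had 4 loci each and spanned 6066 bp at chr14:94549538-94555603, 7600 bp at chr10:94876199-94883798, 7666 bp at chr18:698042-705707, 7996 bp at chr16:15103870-15111865 and 8567 bp at chr17:89387742-89396308. The first 2 had no shared locus, the next 2 had 1 and the last had 2. Only the chain on chromosome 16 held a peak above a fold enrichment of 8 in both libraries, at 8.35 with vehicle and 8.88 with BCAA.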

How the data were processed

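H3K9me3 and IgG CUT&Tag peaks of 4 groups with 1 library each were used, grouped by sample title. The authors deposited 1 broad peak list per library. BWA, MACS2, deepTools, ChIPseeker and rn6 are named in the submitters' processing notes. The sources used here do not give versions, settings or any use of IgG in calling. Each deposited peak has a score (not used), a fold enrichment (a linear ratio over local background) and −log10 p and −log10 q values, per the file layout. The lists give no read totals, so depth is unknown.

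Loci, chains, overlaps and exact Clopper-Pearson 95% intervals were computed with Python 3.11.15, numpy 2.4.6, pandas 2.3.3 and scipy 1.17.1 and plotted with matplotlib 3.10.9. The chain builder was tested on simulated data with planted chains. No p-value was computed. Positions are 1-based. Densities per Mb and distances to ends use the first and last peak of a chromosome as its limits. Chain neighbourhoods, flanks and the ratio outside chains under other settings were defined after seeing the data. The members, chains and lists were chosen with earlier results of these data known. Named chains were the 10 with the most loci (ties by number of peaks), the 5 longest, the 5 with most loci per kb, the 3 highest and 3 lowest ratios among chains of 8 or more peaks, those of 1 library and those with an IgG peak. Named peaks were all members (above 12, the 4 strongest per library) of the 5 chains with the most loci, the 5 pairs of highest lower fold enrichment and the 3 widest per library. Neighbourhoods, chains of strong peaks and fully shared chains were named after their values were seen. The alternatives changed gap, locus number, merging, peak limits and the overlap rule. Gene and sequence comparisons were left out because rn6 was not used here.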

Additional observations from a re-analysis of the deposited data

How the results depend on the processing

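The chain count depends on its definition by construction. Chains numbered 15 with gaps of at most 5 kb, 285 at 20 kb, 311 with 3 or more loci, 21 with 6 or more, 30 and 7 at −log10 q of at least 2 and 5, and 51 with a common shortest peak of 163 bp. Vehicle peaks in them numbered 40, 662, 529, 91, 105, 32 and 108 in that order. BCAA peaks at the first 6 settings numbered 49, 1064, 791, 125, 133 and 32. The number ratio was above 1 in 9 of 10 alternatives, with 1.0 at the stricter q limit and 2.19 with the common shortest peak, which removes vehicle peaks only. Outside chains it was 1.86 as deposited and 0.989 with lists of equal length, where it was 1.24 in chains, so the order of inside and outside turned there. Chains with both libraries made up 100% at 5 kb, at 6 or more loci, at both q limits and with lists of equal length, and 85.9% with 3 or more loci. Vehicle peaks met were 65.0% at 5 kb, 42.1% at 20 kb, 40.3% with 3 or more loci, 69.2% with 6 or more, 76.2% and 96.9% at the q limits and 77.8% with the common shortest peak. BCAA peaks met were 48.98%, 24.7%, 25.03%, 45.6%, 53.4% and 84.4% at the first 6 settings, and 42.8% with equal lists. Requiring 50% of the peak gave 23.7% of BCAA peaks. Reciprocal 50% gave 31.8% of vehicle and 22.6% of BCAA peaks, and a peak within 1 kb 64.9% and 43.0%. With 20 kb, chains of 1 list numbered 38 for vehicle and 119 for BCAA. Joining peaks within 500 bp and leaving out peaks at IgG peaks left all 7 results within their limits. The cause of shifts not fixed by construction was not tested. No paired analysis was possible because every group was a single library.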
